A study of Mus musculus with 17 samples.

Results

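The clustered histone genes are the replication-dependent histone genes of the mouse, which lie side by side in the clusters named Hist1 to Hist4. They were taken as all genes whose GENCODE M21 symbol (assembly GRCm38) begins with Hist1h, Hist2h, Hist3h or Hist4. This gave 70 genes, of which 56 are in Hist1, 10 in Hist2, 3 in Hist3 and 1 in Hist4. By name 6 are linker histone genes (H1), and 20 are genes of the core histone H2A, 19 of H2B, 12 of H3 and 13 of H4. Among them 3 are annotated as pseudogenes (Hist1h2aj, Hist1h2al and Hist3h2bb-ps). Of the 70, 68 had a row in the tables, among 31438 genes in all, and Hist1h2bm and Hist1h2bh were not analysed here. The family was chosen because members such as Hist1h2bc were higher after deletion of Atr, so the Atr comparisons, calls of members included, are given as a description and support nothing about the family.

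The study sequenced poly-A selected RNA from whole cerebella of C57BL/6 mice at postnatal day 3, after removal of the meninges. It asked what loss of Atr, the kinase that guards replicating DNA, changes when cell death is blocked. All 4 genotypes carried Math1-Cre, which is active in the progenitors of granule neurons and leaves the floxed genes intact in most other cells of the cerebellum. The Bax/Bak controls (n = 4) carried Bax-loxP/loxP together with Bak--/-, a null allele that needs no Cre, and the Bax/Bak Atr-deleted mice (n = 5) had Atr-loxP/loxP in addition. The p53 controls (n = 3) carried p53-loxP/loxP, and the p53 Atr-deleted mice (n = 5, of which 4 libraries were used) had Atr-loxP/loxP as well. Bax and Bak are pore-forming proteins needed for mitochondrial apoptosis, and p53 is the transcription factor that triggers it after DNA damage. The labels do not say that each library is a separate animal, so p-values measure the spread between these libraries only. In RNA from a whole cerebellum, fewer cells of a type and less RNA per cell cannot be told apart.

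The 16 libraries used held 42987953 to 100659645 estimated counts each. The library left out, p53 Atr-deleted replicate 3, held 13601, and its title differs from that of another library of its group only by an added 2. Levels are given as CPM, the counts of a gene relative to a library size scaled by edgeR's TMM method, and means are given ± SD. Bak1 was at 0.369 ± 0.154 CPM in the Bax/Bak controls (n = 4) and at 39.9 ± 2.19 CPM in the p53 controls (n = 3). Atr RNA was at 43.7 ± 3.55 CPM in the Bax/Bak controls and at 39.3 ± 2.90 CPM in the Bax/Bak Atr-deleted libraries (edgeR adjusted p = 0.28), and at 37.2 ± 0.968 and 37.4 ± 2.84 CPM with p53 deleted (edgeR adjusted p = 0.977). The summed counts of a gene do not show whether the floxed part of Atr was removed, so the Atr labels were not checked by Atr RNA. Markers of granule cells, astrocytes, Purkinje cells, interneurons and oligodendrocytes were all present, with sums over each list of 436 to 6833 CPM.

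Replication-dependent histone genes make the bulk of the histones that package newly copied DNA. Their RNAs are made in S phase and are the only messenger RNAs of animals that end in a conserved stem-loop in place of a poly-A tail. The stem-loop is bound by the protein SLBP, and some of these genes can also be read through to a poly-A signal further on, or spliced to a distant exon. Poly-A selection, as used for these libraries, recovers such tailed forms and recovers the stem-loop forms poorly.

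The conserved histone stem-loop, with free bases allowed at 1 position of the loop and at the paired positions inside the stem, was searched on the transcript strand in the 75 member transcripts that the tables hold. It was found in 43 of them in 6 spellings, of which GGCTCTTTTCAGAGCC was the most frequent (25 transcripts). In 34 transcripts the annotated sequence went on for over 30 bases past it, in 9 it ended within 30 bases, and 32 had no full match. Of these 32, 15 are annotated with no base after the coding sequence. A stem-loop beyond the coding sequence could not be found in them, so the missing match there says nothing about the RNA. A poly-A signal (AATAAA or ATTAAA in the last 40 bases) was present in 13 of the 34 transcripts that went on and in 0 of the 9 that ended there. The following sequences are those of the 8 singly described members with a match, and are shown because the stem-loop stands both in transcripts that go on past it and in 1 that ends there. Capitals mark the stem-loop, and 5 transcript bases stand on either side, 5′ to 3′, from the GENCODE M21 transcripts (GRCm38).
Hist3h2ba: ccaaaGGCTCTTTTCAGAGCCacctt
Hist3h2a: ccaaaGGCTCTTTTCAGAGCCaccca
Hist1h1c: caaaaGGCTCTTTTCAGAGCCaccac
Hist2h3c1: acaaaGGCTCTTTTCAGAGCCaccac
Hist1h4i: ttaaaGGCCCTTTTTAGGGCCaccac
Hist4h4: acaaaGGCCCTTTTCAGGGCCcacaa
Hist1h2be: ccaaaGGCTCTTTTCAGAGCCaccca
Hist1h2ag: acaaaGGCTCTTTTCAGAGCCaccta
The stem-loop of Hist3h2ba is at chr11:58949349-58949364 (plus strand) and the transcript continues for 169 bases. That of Hist3h2a is at chr11:58955172-58955187 (plus strand) and 1643 bases follow. That of Hist1h1c is at chr13:23739512-23739527 (plus strand), followed by 840 bases. Hist2h3c1 has its stem-loop at chr3:96247327-96247342 (plus strand) with 1162 bases after it, Hist1h4i at chr13:22040966-22040981 (minus strand) with 330, and Hist4h4 at chr6:136803998-136804013 (minus strand) with 2445. Hist1h2be has it at chr13:23585531-23585546 (minus strand), followed by 1861 bases. Hist1h2ag holds the same stem-loop letters as Hist3h2ba, Hist3h2a, Hist1h1c, Hist2h3c1 and Hist1h2be, and only 23 bases follow it, at chr13:22042483-22042498 (minus strand). The spliced transcript of Hist1h2bc and the transcript of Hist2h2be hold no match.

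Per length, Hist3h2ba, an H2B gene, was the most abundant member, with a mean of 58.0 CPM per kb of its longest annotated transcript over the 16 libraries. Hist3h2a, its H2A neighbour on chromosome 11, followed with 29.3 CPM per kb, Hist1h2bc (H2B) with 23.0, Hist1h1c (linker histone H1) with about 11 and Hist1h4i (H4) with 9.18. Hist1h2bc and Hist1h1c changed their place with Atr: Hist1h2bc was at 8.87 CPM per kb in the Bax/Bak controls and 8.84 in the p53 controls, and at 23.8 and 46.7 in the respective Atr-deleted groups. Its level in both Atr-deleted groups was above that of Hist3h2a there (22.3 CPM per kb with Bax/Bak deleted and 39.6 with p53 deleted). In both control groups Hist3h2a was the higher. Hist1h1c was below Hist1h4i in the Bax/Bak controls (5.97 against 7.42) and p53 controls (6.37 against 8.29). It was above Hist1h4i in the respective Atr-deleted groups (10.97 against 6.80 and 19.6 against 14.6). The 12 members with a mean of at least 1 CPM were Hist3h2a, Hist3h2ba, Hist1h2bc, Hist1h1c, Hist2h2be, Hist1h4i, Hist2h2aa1, Hist2h3c1, Hist4h4, Hist1h2bq, Hist1h2be and Hist1h2ag. The 5 most abundant held 80.1% of all family CPM. The other 56 members were each below 1 CPM on average, and 29 of the 68 had 0 counts in at least 1 library. Hist1h2ba, the H2B of the testis, had 0 counts in all 16 libraries, which allows up to 0.00274 CPM (3 counts over their total, counting error only), and the testis genes Hist1h2aa and Hist1h1t had 36 and 30 counts over all.

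Many members are near-copies of each other, and the program that assigned the reads divides those that fit several copies. Of the 68 members, 38 shared over 50% of their 31-base words with another gene, and 30 shared at most that. Hist1h1b (3.93%), Hist2h2be (2.28%), Hist4h4 (10.7%) and Hist1h1c (11.4%) shared little. Hist1h2bc shared 33.45% of its words, the gene sharing most being Hist1h2br (26.15%). Hist2h2aa1 and Hist2h2aa2 shared 89.6% and 100% of theirs, and what this does to their values was not tested. Hist2h2aa2 ranged from 0 to 2.17 CPM among the Bax/Bak controls, and the sum of both copies from 3.46 to 4.85 CPM. The SD there was 0.690 CPM for Hist2h2aa1, 0.915 for Hist2h2aa2 and 0.648 for the sum. In the p53 Atr-deleted libraries the SDs were 0.367, 0.452 and 0.605 CPM, so the sum was not steadier in every group. Hist1h2bq shared 98.3% of its words, nearly all with Hist1h2br. Hist3h2a shared 32.1% with Trim17, a gene it overlaps on the same strand.

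Summed over the 68 members, the Bax/Bak controls held 134 to 155 CPM and the Bax/Bak Atr-deleted libraries 152 to 185 CPM. The p53 controls held 169 to 185 CPM, and the p53 Atr-deleted libraries 287 to 319 CPM. The p53 Atr-deleted libraries thus lay above every other library, while the 2 Bax/Bak groups overlapped. The mean of the Atr-deleted group was 1.15 times that of its control with Bax/Bak deleted and 1.70 times with p53 deleted, and these ratios were 1.14 and 1.73 over the members that share at most 50% of their words. Hist1h2bc alone made up 17.2 of the 22.15 CPM by which the Bax/Bak groups differed (77.7%), and Hist1h1c 7.80 CPM (35.2%). This is a net difference, since Hist3h2a (-5.12 CPM), Hist2h2be (-3.425 CPM) and Hist3h2ba (-2.995 CPM) were lower on average in the Atr-deleted libraries. In the p53 groups, which differed by 125 CPM, Hist1h2bc accounted for 43.8 CPM (34.9%), Hist1h1c for 20.6, Hist3h2a for 13.2, Hist3h2ba for 13.0 and Hist2h2be for 9.45. The share of Hist1h2bc in the family went from 7.19% ± 1.27 (n = 4) to 16.6% ± 0.935 (n = 5) with Bax/Bak deleted and from 5.73% ± 0.367 (n = 3) to 17.8% ± 1.86 (n = 4) with p53 deleted. The whole family made up 0.0132% to 0.0318% of a library's counts.

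**Figure D1:**
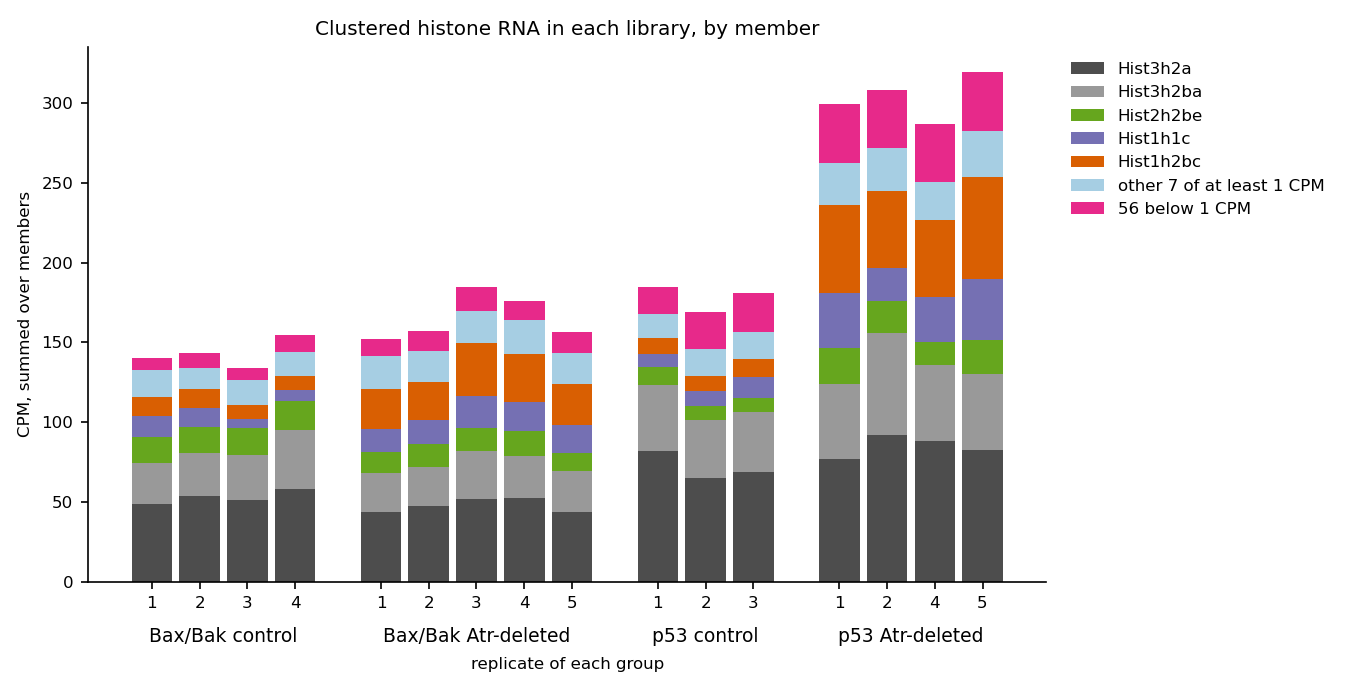
Stacked bars give the CPM of each library (y axis, from 0), split into the 5 most abundant members, the 7 other members of at least 1 CPM and the 56 below 1 CPM, by group and replicate (x axis). The p53 Atr-deleted bars reach 287 to 319 CPM, and the Hist1h2bc segment is taller in all Atr-deleted libraries than in any control.

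Hist1h1c (chr13:23738808-23740367, plus strand) codes for a somatic linker histone, which binds the DNA between nucleosomes. Hist1h1c was at 12.9, 12.1, 5.62 and 6.65 CPM in the Bax/Bak controls and at 14.5, 15.2, 20.1, 18.01 and 17.7 CPM in the Bax/Bak Atr-deleted libraries. With p53 deleted, Hist1h1c was at 7.82, 9.04 and 12.98 CPM in the controls and at 34.8, 20.5, 28.2 and 38.7 CPM in the Atr-deleted libraries. The Atr-deleted libraries were above all controls of their background in both cases, narrowly with Bax/Bak deleted, where controls 1 and 2 were high and controls 3 and 4 low. Hist1h1c had log2 fold changes of 0.93 ± 0.26 with Bax/Bak deleted and 1.62 ± 0.24 with p53 deleted (± SE of edgeR's fit). Against the Bax/Bak controls of the number series 100019 alone, which are controls 1 and 2, the log2 fold change was 0.49, and against those of series 1842 it was 1.498. The number series is the number that opens the last part of a library's title, and the labels do not say what it stands for.

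The other somatic H1 genes, Hist1h1a, Hist1h1b, Hist1h1d and Hist1h1e, were each below 1 CPM on average and are named here after their values were seen. Hist1h1b ranged from 0.01401 to 0.0678 CPM in the Bax/Bak controls, 0.479 to 0.766 in the Bax/Bak Atr-deleted libraries, 0.243 to 0.862 in the p53 controls and 1.86 to 2.35 in the p53 Atr-deleted libraries. Hist1h1d ranged in the same order from 0.0731 to 0.226, 0.529 to 0.681, 0.358 to 1.015 and 1.696 to 2.395 CPM. Both were lowest in the Bax/Bak controls and highest in the p53 Atr-deleted libraries, with no overlap of these groups. Hist1h1b had log2 fold changes of 3.58 ± 0.39 with Bax/Bak deleted and 1.79 ± 0.38 with p53 deleted. Hist1h1d had log2 fold changes of 2.53 ± 0.35 with Bax/Bak deleted and 1.42 ± 0.35 with p53 deleted. Hist1h1e had log2 fold changes of 0.32 ± 0.40 and 0.24 ± 0.34, within about 1 SE of 0. Summed over the 6 H1 genes, the level was 9.73 ± 3.73 CPM in the Bax/Bak controls (n = 4), 18.7 ± 2.45 in the Bax/Bak Atr-deleted libraries (n = 5), 12.7 ± 3.56 in the p53 controls (n = 3) and 36.9 ± 7.89 in the p53 Atr-deleted libraries (n = 4).

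Among the H2A genes, Hist3h2a (chr11:58954685-58956830, plus strand) carried most of the RNA. Hist3h2a was at 48.8, 53.6, 51.2 and 58.3 CPM in the Bax/Bak controls and at 43.5, 47.4, 52.05, 52.3 and 43.9 CPM in the Bax/Bak Atr-deleted libraries. With p53 deleted, Hist3h2a was at 81.7, 65.02 and 68.6 CPM in the controls and at 76.8, 92.2, 88.1 and 82.7 CPM in the Atr-deleted libraries. The Bax/Bak groups overlapped, and so did the p53 groups, where control 1 lay above Atr-deleted replicate 1. Hist3h2a had log2 fold changes of -0.09 ± 0.07 with Bax/Bak deleted and 0.25 ± 0.11 with p53 deleted. Summed over the 20 H2A genes, the level was 60.9 ± 4.84 and 55.2 ± 4.24 CPM in the Bax/Bak controls and Atr-deleted libraries, and 82.7 ± 8.14 and 98.6 ± 6.65 CPM in those with p53 deleted.

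Hist1h2ag (chr13:22042460-22042944, minus strand), the H2A gene whose transcript ends at the stem-loop, was a gene of low level. Hist1h2ag was at 1.15, 1.29, 1.11 and 2.17 CPM in the Bax/Bak controls and at 0.295, 0.511, 0.834, 0.487 and 0.215 CPM in the Bax/Bak Atr-deleted libraries. With p53 deleted, Hist1h2ag was at 2.58, 2.38 and 1.53 CPM in the controls and at 2.18, 1.74, 1.57 and 1.58 CPM in the Atr-deleted libraries. All Bax/Bak Atr-deleted libraries were below all of their controls, and the p53 groups overlapped. Hist1h2ag had log2 fold changes of -1.56 ± 0.36 with Bax/Bak deleted and -0.28 ± 0.24 with p53 deleted. Hist1h2ag shares 79.8% of its 31-base words with other members, mostly Hist1h2ap. Hist1h2ap, which also ends at the stem-loop, had a log2 fold change of -1.94 ± 0.55 with Bax/Bak deleted. Hist2h2aa1, the remaining H2A gene above 1 CPM, had log2 fold changes of 0.23 ± 0.17 and 0.33 ± 0.23.

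Hist1h2bc (chr13:23684199-23692908, plus strand) is the H2B gene that drew attention to the family. Its annotated transcript joins exon 1 at chr13:23684199-23684621 to exon 2 at chr13:23692176-23692908. Hist1h2bc was at 11.8, 11.6, 8.701 and 8.94 CPM in the Bax/Bak controls and at 24.8, 23.8, 32.7, 30.02 and 26.02 CPM in the Bax/Bak Atr-deleted libraries. With p53 deleted, Hist1h2bc was at 9.95, 9.65 and 11.1 CPM in the controls and at 55.02, 48.2, 48.9 and 63.8 CPM in the Atr-deleted libraries. Every Atr-deleted library was above every control, and the p53 Atr-deleted libraries, at 48.2 to 63.8 CPM, were also above all Bax/Bak Atr-deleted libraries. Hist1h2bc had log2 fold changes of 1.48 ± 0.13 with Bax/Bak deleted and 2.41 ± 0.12 with p53 deleted, which are 2.79-fold and 5.31-fold. The fitted difference between these effects was 0.94 ± 0.18 (p53 minus Bax/Bak). With the controls of a single number series, the log2 fold change was 1.27 (series 100019) and 1.66 (series 1842) with Bax/Bak deleted, and 2.43 (series 1843) with p53 deleted.

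Hist1h2ac, an H2A gene, begins 251 bases from Hist1h2bc and is read in the opposite direction, one of 15 such head-to-head pairs in the family. The 250 bases before the RefSeq start of Hist1h2ac (listed there as H2ac6, chr13:23683960-23684209, minus strand, GRCm38.p6) span the space between both starts, and are printed because both genes were higher after Atr deletion. Read 5′ to 3′ towards Hist1h2ac, with the start of Hist1h2bc near the left end, they are as follows, capitals marking CCAAT (or ATTGG on this strand) and TATAAA.
Hist1h2ac upstream: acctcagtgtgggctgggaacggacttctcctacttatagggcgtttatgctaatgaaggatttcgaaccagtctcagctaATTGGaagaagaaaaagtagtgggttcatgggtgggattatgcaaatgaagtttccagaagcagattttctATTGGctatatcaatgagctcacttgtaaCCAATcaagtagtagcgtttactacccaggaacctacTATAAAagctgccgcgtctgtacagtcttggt
CCAAT, searched with its reverse complement ATTGG in 300 bases around each RefSeq start (250 before and 50 after), was present in 53 of 62 member promoters with a sequence (85.5%) and in 37.4% of 32817 promoters of all genes. TATAAA or its reverse complement TTTATA was present in 35 of the 62 (56.5%) and in 13.6% of all. Head-to-head members share much of their promoter sequence, so these are not independent counts. Hist1h2ac, named here after its values were seen, had log2 fold changes of 2.67 ± 0.33 and 1.78 ± 0.65, at a mean of 0.56 CPM. Partners in other pairs did not always go together with Bax/Bak deleted. Signs were opposite for Hist1h2ae (-0.79) and Hist1h2bg (1.40), Hist1h2ag (-1.56) and Hist1h2bj (0.28), and Hist1h2ah (0.36) and Hist1h2bk (-0.88). Both were negative for Hist2h2ac (-0.20) and Hist2h2be (-0.27), and for Hist3h2bb-ps (-0.09) and Hist3h2a (-0.09).

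Hist3h2ba (chr11:58948920-58949533, plus strand) is the H2B partner of Hist3h2a in the small Hist3 cluster. Hist3h2ba was at 25.4, 27.04, 27.9 and 36.6 CPM in the Bax/Bak controls and at 24.5, 24.5, 30.1, 26.6 and 25.6 CPM in the Bax/Bak Atr-deleted libraries. With p53 deleted, Hist3h2ba was at 41.5, 36.1 and 37.9 CPM in the controls and at 47.1, 63.8, 47.5 and 47.6 CPM in the Atr-deleted libraries. The Bax/Bak groups overlapped. All p53 Atr-deleted libraries were above their controls, with replicate 2 apart from the other 3. Hist3h2ba had log2 fold changes of -0.10 ± 0.10 with Bax/Bak deleted and 0.43 ± 0.13 with p53 deleted, and 0.30 with p53 deleted when that replicate was left out.

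Hist2h2be (chr3:96221119-96223738, plus strand) is an H2B gene with a long transcript that ends in a poly-A signal and holds no stem-loop match. Hist2h2be was at 16.7, 16.3, 17.04 and 18.6 CPM in the Bax/Bak controls and at 13.3, 14.2, 14.4, 15.8 and 10.9 CPM in the Bax/Bak Atr-deleted libraries. With p53 deleted, Hist2h2be was at 11.8, 9.34 and 8.98 CPM in the controls and at 22.4, 20.00, 14.4 and 21.1 CPM in the Atr-deleted libraries. With Bax/Bak deleted the Atr-deleted libraries were all below the controls, and with p53 deleted they were all above, so the direction was opposite in the 2 backgrounds. Hist2h2be had log2 fold changes of -0.27 ± 0.10 with Bax/Bak deleted and 0.96 ± 0.17 with p53 deleted. The fitted difference between these effects was 1.24 ± 0.19, the largest among the members above 1 CPM apart from Hist1h2ag (1.29 ± 0.47). The difference with Bax/Bak deleted did not pass the threshold in 10 of 24 alternative fits.

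Hist1h2bq (chr13:21806612-21810197, minus strand) was an H2B gene of low level with a large ratio. Hist1h2bq was at 0.323, 0.226, 0.126 and 0.355 CPM in the Bax/Bak controls and at 2.49, 2.04, 2.98, 2.81 and 2.68 CPM in the Bax/Bak Atr-deleted libraries. With p53 deleted, Hist1h2bq was at 0.401, 0.609 and 0.6201 CPM in the controls and at 2.64, 2.97, 2.54 and 4.305 CPM in the Atr-deleted libraries. All Atr-deleted libraries were above all controls, in both backgrounds. Hist1h2bq had log2 fold changes of 3.38 ± 0.28 with Bax/Bak deleted and 2.52 ± 0.28 with p53 deleted, or 10.4-fold and 5.75-fold. Since its reads can hardly be told from those of Hist1h2br, both genes were also added, and the sum was 0.407 ± 0.144 CPM in the Bax/Bak controls (n = 4), 2.76 ± 0.170 in the Bax/Bak Atr-deleted libraries (n = 5), 0.923 ± 0.0273 in the p53 controls (n = 3) and 4.03 ± 0.973 in the p53 Atr-deleted libraries (n = 4). With p53 deleted, Hist1h2bq no longer passed the threshold in 8 of 19 alternative fits, 5 of which left out 1 library (each p53 control, and Atr-deleted replicates 1 and 2), at log2 fold changes of 2.20 to 2.95.

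Hist1h2be (chr13:23583670-23621124, minus strand), an H2B gene with spliced and unspliced transcripts, reaches into Hist1h1e on the same strand. Hist1h2be was at 1.41, 1.22, 1.15 and 0.866 CPM in the Bax/Bak controls and at 2.14, 1.75, 1.498, 1.81 and 1.83 CPM in the Bax/Bak Atr-deleted libraries. With p53 deleted, Hist1h2be was at 0.487, 1.04 and 0.786 CPM in the controls and at 2.17, 2.37, 1.73 and 1.71 CPM in the Atr-deleted libraries. The Atr-deleted libraries were above the controls in both backgrounds. Hist1h2be had log2 fold changes of 0.70 ± 0.19 with Bax/Bak deleted and 1.38 ± 0.29 with p53 deleted. Its unspliced transcript (chr13:23618980-23621078) overlaps Hist1h1e and has no annotated coding sequence. By group means it went from 0.605 to 1.03 CPM with Bax/Bak deleted and from 0.37 to 0.763 CPM with p53 deleted. The spliced transcripts went from 0.302 to 0.429 and 0.254 to 0.348 CPM with Bax/Bak deleted. With p53 deleted they went from 0.138 to 0.49 and 0.264 to 0.741 CPM. Summed over the 17 H2B genes in the tables, the level was 59.9 ± 5.48 and 74.8 ± 7.22 CPM in the Bax/Bak controls and Atr-deleted libraries, and 64.3 ± 3.22 and 137 ± 11.2 CPM in those with p53 deleted.

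**Figure D2:**
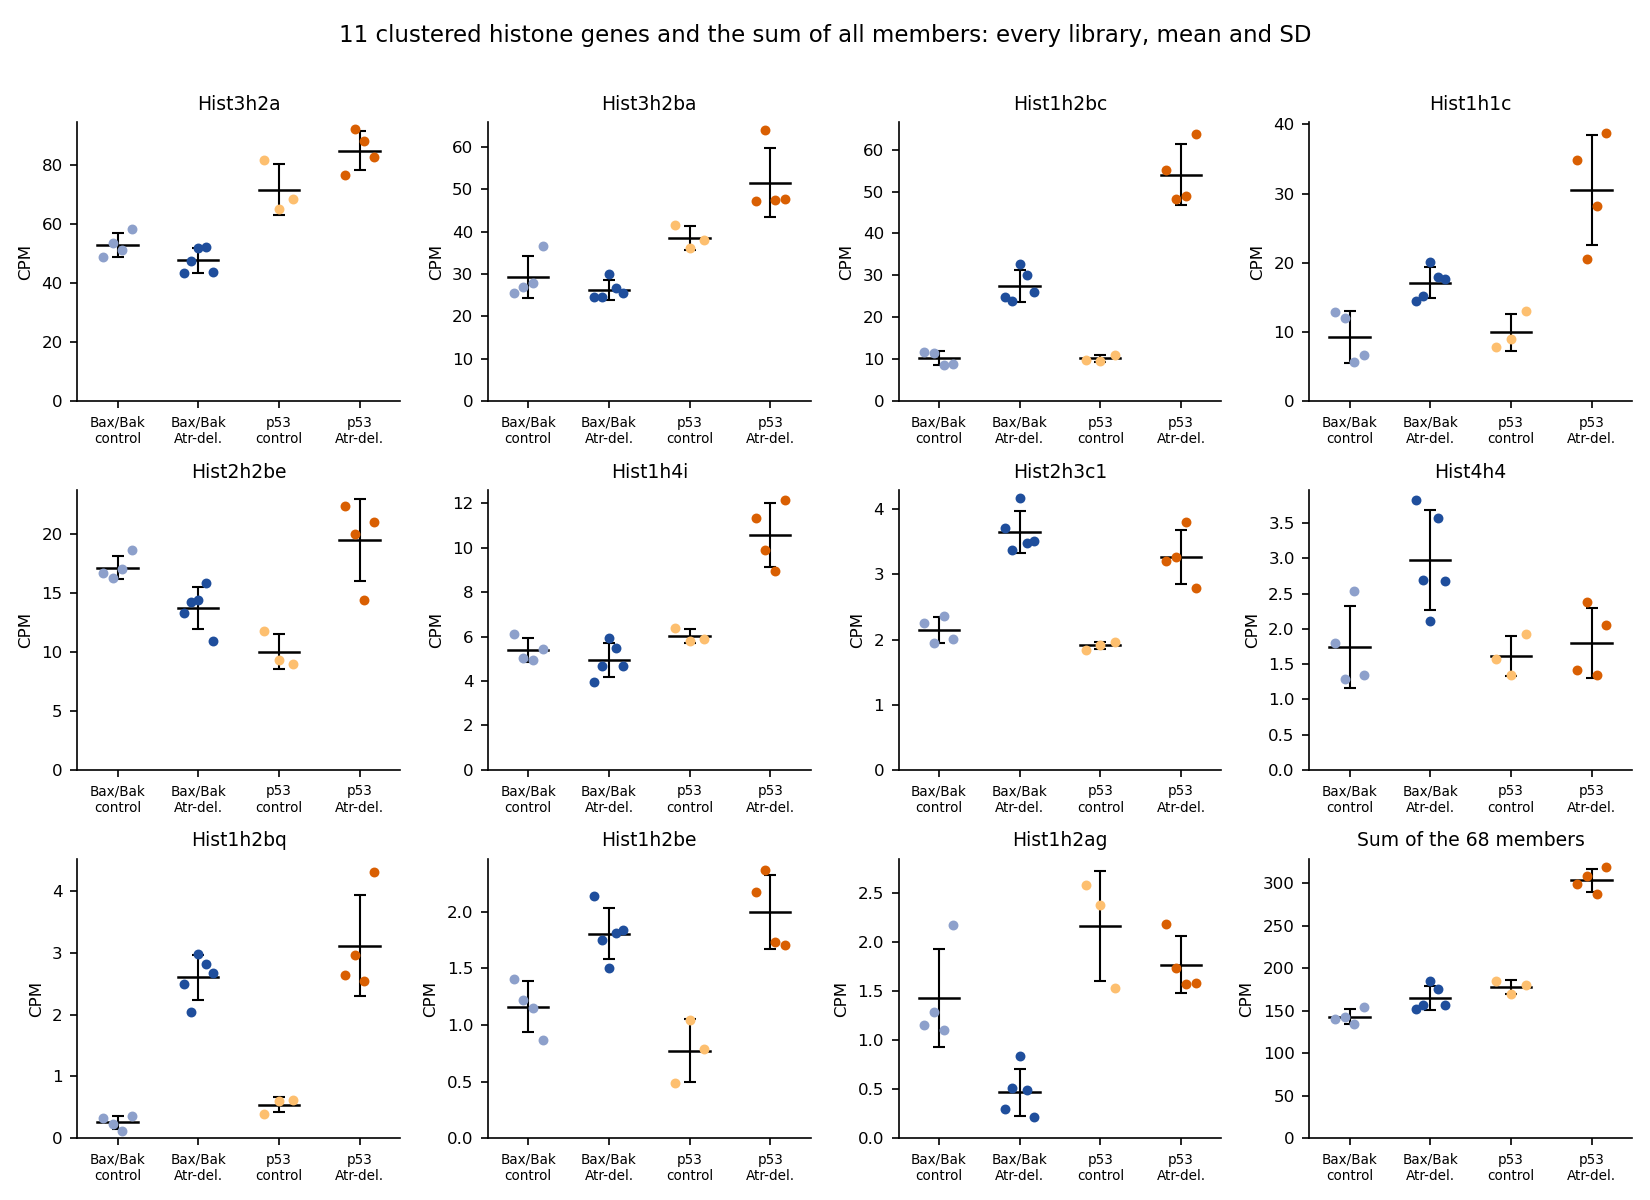
Each panel gives the CPM (y axis, from 0) of 1 member or of the whole family in all 16 libraries by group (x axis), with points for libraries, bars for the mean and whiskers for the SD. Hist1h2bc, Hist1h1c, Hist2h3c1, Hist1h2bq and Hist1h2be lie higher in the Atr-deleted libraries of both backgrounds, while Hist2h2be lies lower in one and higher in the other.

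The only H3 gene above 1 CPM was Hist2h3c1 (chr3:96246685-96248509, plus strand). Hist2h3c1 was at 2.26, 1.94, 2.37 and 2.01 CPM in the Bax/Bak controls and at 3.71, 3.38, 4.17, 3.48 and 3.52 CPM in the Bax/Bak Atr-deleted libraries. With p53 deleted, Hist2h3c1 was at 1.85, 1.92 and 1.97 CPM in the controls and at 3.21, 3.26, 3.803 and 2.78 CPM in the Atr-deleted libraries. The Atr-deleted libraries were above the controls in both backgrounds, without overlap. Hist2h3c1 had log2 fold changes of 0.82 ± 0.12 with Bax/Bak deleted and 0.78 ± 0.18 with p53 deleted, and these differed by -0.03 ± 0.19. Its near-copy Hist2h3c2 was lower, and with both added the means were 2.65 ± 0.405 and 4.25 ± 0.310 CPM with Bax/Bak deleted (n = 4 and 5) and 2.67 ± 0.255 and 4.10 ± 0.324 CPM with p53 deleted (n = 3 and 4).

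Hist1h4i (chr13:22040636-22041362, minus strand) held most of the H4 RNA. Hist1h4i was at 6.14, 5.04, 4.96 and 5.44 CPM in the Bax/Bak controls and at 3.94, 4.67, 5.94, 5.48 and 4.69 CPM in the Bax/Bak Atr-deleted libraries. With p53 deleted, Hist1h4i was at 6.38, 5.803 and 5.899 CPM in the controls and at 11.3, 9.89, 8.95 and 12.2 CPM in the Atr-deleted libraries. The Bax/Bak groups overlapped, whereas the p53 Atr-deleted libraries were all above their controls. Hist1h4i had log2 fold changes of -0.07 ± 0.13 with Bax/Bak deleted and 0.82 ± 0.14 with p53 deleted, with a fitted difference of 0.90 ± 0.19. Hist4h4 (chr6:136801553-136804415, minus strand), the H4 gene that lies outside the larger clusters, had another pattern. Hist4h4 was at 1.800, 1.29, 2.54 and 1.35 CPM in the Bax/Bak controls and at 3.83, 2.699, 2.11, 3.58 and 2.68 CPM in the Bax/Bak Atr-deleted libraries. With p53 deleted, Hist4h4 was at 1.57, 1.35 and 1.92 CPM in the controls and at 1.42, 2.38, 1.34 and 2.05 CPM in the Atr-deleted libraries. Both pairs of groups overlapped. Hist4h4 had log2 fold changes of 0.83 ± 0.24 with Bax/Bak deleted and 0.16 ± 0.26 with p53 deleted. The difference with Bax/Bak deleted lost its call in 5 of 24 alternative fits, among them those without control 2 (0.66), without control 4 (0.71) and against the controls of series 1842 alone (0.65).

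Over all members, Bax/Bak Atr-deleted and control libraries were compared for the 44 that passed the filter on low counts, 24 having been removed. The quasi-likelihood test of edgeR, with p adjusted by Benjamini-Hochberg and a threshold of 0.05, called 7744 of 17405 genes (44.5%), 3919 higher (22.5%) and 3825 lower (22%). Of the 44 members, 18 were called higher and 5 lower. The median log2 fold change was 0.54 over these members and 0.04 over all genes tested. Groups lay fully apart for 17 of the 44 in the higher direction (14.5% of all genes) and for 4 in the lower (23.6% of all genes). The members called higher were Hist1h2bc, Hist1h1c, Hist2h3c1, Hist4h4, Hist1h2bq, Hist1h2be and 12 below 1 CPM. The 5 called lower were Hist2h2be, Hist1h2ag and, named after their values were seen, Hist1h2ap, Hist1h3c and Hist1h4c. With genes that share over 50% of their 31-base words left out, 14 of 22 members were called, 12 of them higher, beside 46.4% of all genes. The filter keeps a gene whose counts are high enough in 1 group alone. Hist1h4n, called higher, was at 0 to 0.0452 CPM in the controls and passed through the Atr-deleted libraries (0.202 to 0.529 CPM). Hist1h2ap, called lower, was at 0 to 0.107 CPM in the Atr-deleted libraries and passed through the controls (0.210 to 0.334 CPM). The counts and the median above include members that entered in this way. They come from the comparison that chose the family and are a description. All Bax/Bak Atr-deleted libraries are of number series 1836 and their controls of 100019 and 1842, so Atr deletion and number series cannot be told apart here.

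With p53 deleted, 59 members passed the filter. The test called 8 of 17348 genes (0.0461%), all of them higher (0.0461%), and 2 of these were members, Hist1h2bc and Hist1h2bq. The median log2 fold change was 0.71 over the 59 members and 0.01 over all genes, and 53 of the 59 were above 0. Some of the 59 passed the filter through 1 group alone. Hist1h2bp (0 to 0.116 CPM in the controls) passed through the Atr-deleted libraries (0.308 to 0.446 CPM). Hist1h2al (0 to 0.372 CPM in the Atr-deleted libraries) passed through the controls (0.711 to 0.877 CPM). Before adjustment, 31 members (52.5%) and 6.58% of all genes passed the same threshold. The groups lay fully apart for 25 of the 59 in the higher direction (3.8% of all genes) and for 1 in the lower (4.05%). The number of members called depended on the fit: 14 of the 128 genes called by DESeq2 (0.738% of all genes tested), 9 of 70 when all 16 libraries were fitted together (0.385%), 5 of 23 with the shallow library kept in (0.133%) and 1 of 4 with limma-voom (0.0231%). For 43 members fitted in both backgrounds, 28 had log2 fold changes above 0 in both. The 2 backgrounds share no library.

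**Figure D3:**
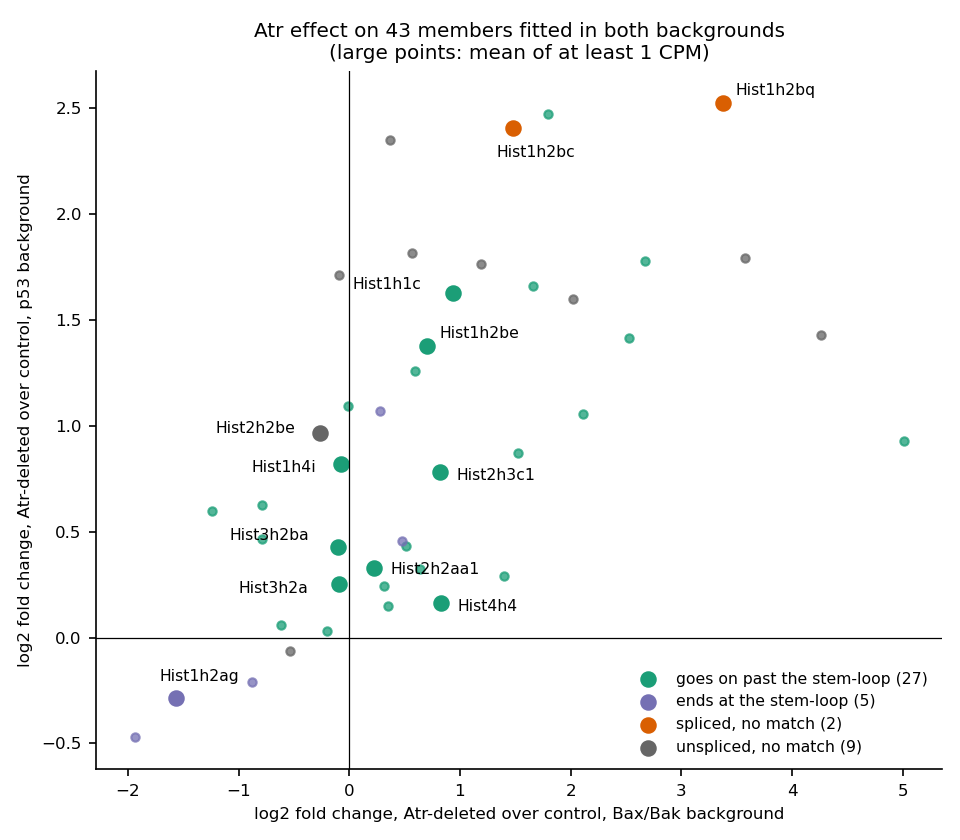
Points are the 43 members fitted in both backgrounds, with the log2 fold change of Atr-deleted over control libraries with Bax/Bak deleted (x axis) and with p53 deleted (y axis), coloured by annotated transcript ends. A gene with any transcript that goes on past the stem-loop is in that class. Hist1h2bc and Hist1h2bq lie far up and right of 0, and some members below 1 CPM, such as Hist1h4n (5.01), lie further right than both. Hist2h2be lies left of 0 and above it, and Hist1h2ag lies below 0 on both axes.

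The Atr effects of the 2 backgrounds were compared by an interaction term over all 16 libraries, which called 2936 of 18166 genes (16.2%), 8.09% higher with p53 deleted and 8.08% lower. Of 61 members tested, 7 were called with the larger log2 fold change with p53 deleted and 3 with the smaller. By sign alone, 39 members had the larger log2 fold change with p53 deleted and 22 the smaller. Hist2h2be (1.24 ± 0.19), Hist1h2bc (0.94 ± 0.18), Hist1h4i (0.90 ± 0.19) and Hist3h2ba (0.54 ± 0.17) were the 4 of the 7 above 1 CPM. The 3 called with the smaller effect, named after their values were seen, were Hist1h1b (-1.78 ± 0.54), Hist1h2bn (-2.85 ± 0.70) and Hist1h4n (-4.06 ± 0.95). Summed over the Bax/Bak controls, these had only 12, 9 and 2 counts, so the size of these differences is uncertain. Hist1h2bn and Hist1h4n also share 88.0% and 87.5% of their words with other genes. Leaving out p53 control 2 or 3 reduced the calls to 6 and 5 (9.87% and 8.82% of all genes). Background, table and number series cannot be told apart in this comparison.

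The control groups were then compared with each other. The same control libraries enter the Atr effects that chose the family, so this comparison is a description too. edgeR's quasi-likelihood test over all 16 libraries called 1690 of 18166 genes (9.3%) higher in the p53 controls than in the Bax/Bak controls and 1582 (8.71%) lower. Of the 61 members tested, 27 were called higher and 2 lower. Of these 61, 17 had failed the filter among the Bax/Bak libraries and entered through the p53 libraries, and 8 of the 27 are among them. Among the other 44, 19 were called higher and 2 lower. In CPM, the family means differed by 35.2, to which Hist3h2a added 18.8, Hist3h2ba 9.24 and the 56 members below 1 CPM together 12.9. The 3 members of at least 1 CPM called higher were Hist3h2a (0.44 ± 0.09), Hist3h2ba (0.40 ± 0.13) and Hist1h2bq (1.07 ± 0.30). The 2 lower members were Hist2h2be (-0.77 ± 0.15) and the pseudogene Hist3h2bb-ps (-2 ± 0.54), the latter named after its value was seen. Hist1h2bc, at 0.00, and Hist1h1c, at 0.10 ± 0.28, were not called.

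Linker histone genes were among the 24 members below 1 CPM called higher in the p53 controls. Hist1h1b was at 0.0461, 0.0678, 0.01401 and 0.0626 CPM in the Bax/Bak controls and at 0.243, 0.667 and 0.862 CPM in the p53 controls, a log2 fold change of 3.61 ± 0.44. Hist1h1d, at 0.0923, 0.226, 0.0841 and 0.0731 and 0.358, 1.015 and 0.923 CPM, had one of 2.75 ± 0.39. Neither pair of groups overlapped. Few counts stand behind these levels, 1 to 6 for Hist1h1b in a Bax/Bak control and 17 to 57 in a p53 control. With the p53 control of series 1843 alone, the log2 fold changes were 2.34 for Hist1h1b and 1.67 for Hist1h1d. Hist1h1e (2.38 ± 0.41) and Hist1h1a (3.09 ± 0.61) were called higher in the p53 controls as well, though Hist1h1a had failed the filter among the Bax/Bak libraries. All 4 share at most 34.7% of their words with other genes. Hist1h2al, a processed pseudogene of H2A at chr13:51202727-51203065 (minus strand), away from the other Hist1 genes, shares 81.9% of its words, mostly with Hist2h2aa2. It had 0 counts in each of the 9 Bax/Bak libraries, 53, 49 and 58 in the p53 controls and 1, 0, 23 and 0 in the p53 Atr-deleted libraries.

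The p53 controls differed among themselves in the low members. Control 1, whose title carries the number 1843 like those of the Atr-deleted libraries, was the lowest of the 3 for 38 of the 68 members and the highest for 15. Its members below 1 CPM summed to 16.6 CPM against 23.6 and 24.6 CPM in controls 2 and 3, while its family sum was the highest of the 3 (184.6 CPM against 169.3 and 181 CPM). With this control alone, 1 library is left for the p53 controls, so calls are not given. With the Bax/Bak controls of series 100019 alone, 18 members were called in place of 29 (10.1% of all genes in place of 18%). Leaving out Bax/Bak control 3, p53 control 2 or p53 control 3 gave 19, 17 and 16 calls (11.7%, 11.2% and 10.2% of all genes). Hist3h2a and Hist2h2be each kept their call in 32 of 33 alternative fits, Hist3h2a with log2 fold changes of 0.34 to 0.63 over all 33. Hist3h2ba lost its call in 16 of 33 and Hist1h2bq in 11 of 32. Background, table and number series cannot be told apart here either.

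**Figure D4:**
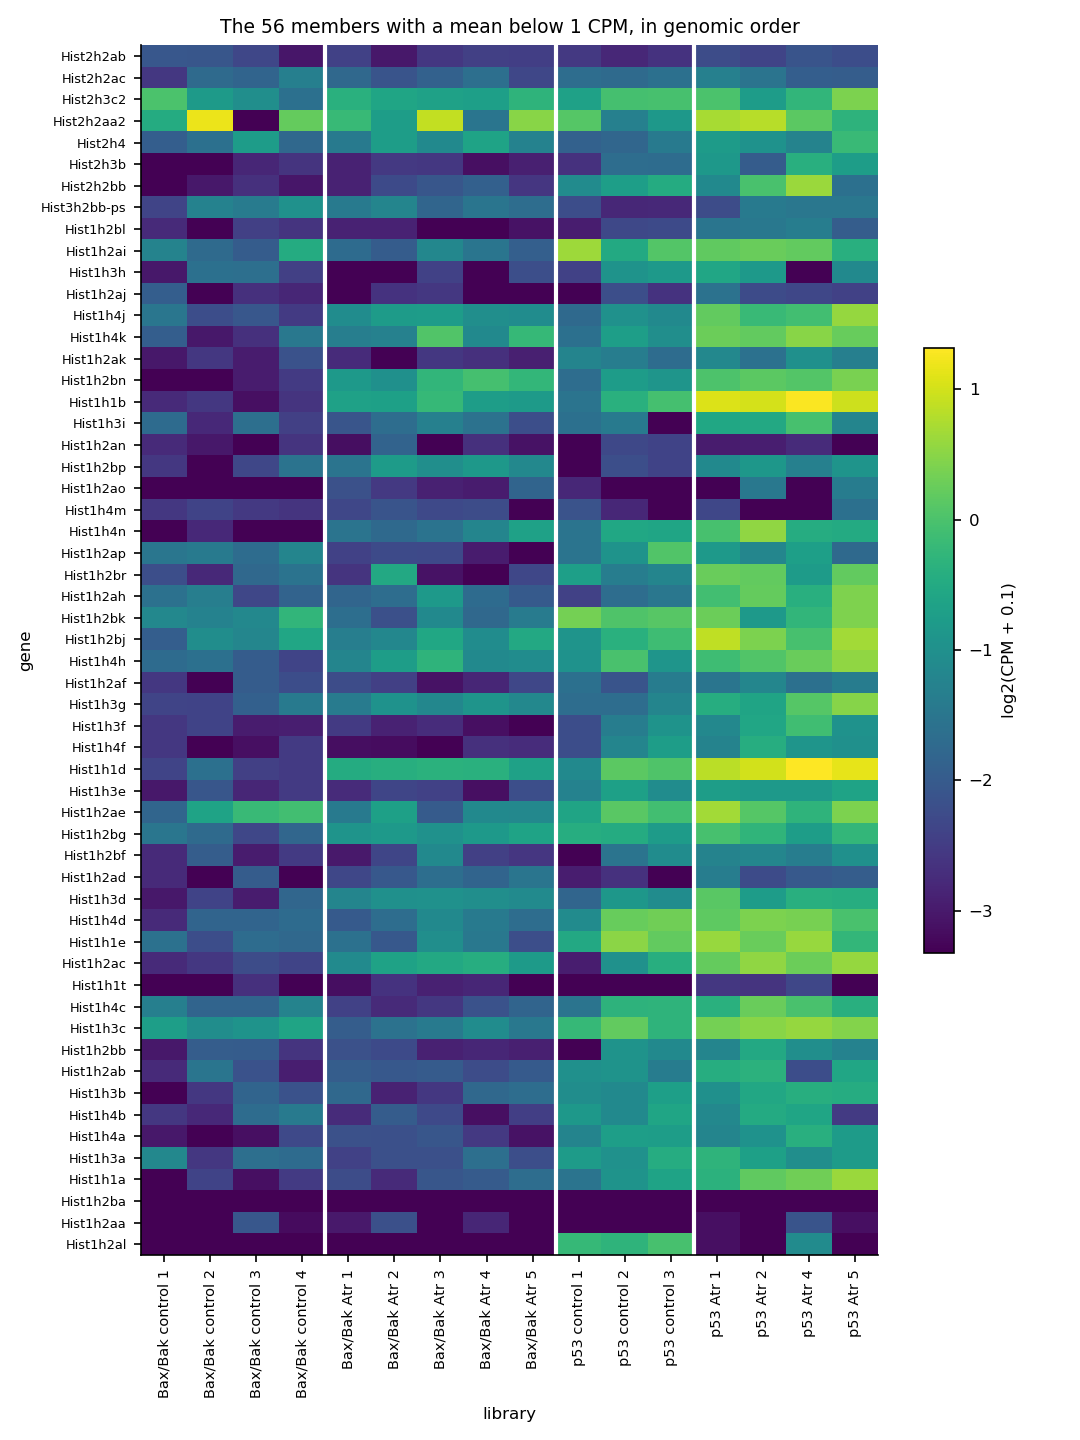
Rows are the 56 members with a mean below 1 CPM in genomic order, columns the 16 libraries by group (white lines part the groups), and colour gives log2(CPM + 0.1). For 46 of the 56 rows the mean is highest in the p53 Atr-deleted libraries, Hist1h2al is seen chiefly in the 3 p53 controls, and Hist1h2ba is at 0 throughout.

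The family RNA was also sorted by the annotated 3′ ends of its transcripts. Transcripts that go on past the stem-loop held 76.6% ± 0.427 of the members' counts in the Bax/Bak controls (n = 4) and 69.4% ± 0.971 in the Bax/Bak Atr-deleted libraries (n = 5). With p53 deleted they held 81.1% ± 0.624 in the controls (n = 3) and 68.2% ± 2.36 in the Atr-deleted libraries (n = 4). Each Atr-deleted group lay below its controls in this share, though not in CPM. Transcripts that end at the stem-loop held 2.09% ± 0.523 and 1.03% ± 0.240 with Bax/Bak deleted, and 3.21% ± 0.276 and 2.01% ± 0.283 with p53 deleted. Spliced transcripts went the other way, from 7.78% ± 1.29 to 18.7% ± 0.864 with Bax/Bak deleted and from 6.28% ± 0.491 to 19.3% ± 2.04 with p53 deleted. These shares largely restate the values of Hist1h2bc, the member named in choosing the family: without it the spliced transcripts held 0.839 to 4.63 CPM as group means, of 11.1 to 58.6 CPM in all. Assignment of reads to transcripts rests on the annotation, and the ends themselves were not sequenced.

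In absolute terms the 33 genes that go on past the stem-loop summed to 110 ± 6.85 and 116 ± 8.59 CPM in the Bax/Bak controls and Atr-deleted libraries, and to 145 ± 7.35 and 208 ± 8.67 CPM in those with p53 deleted. The 9 genes that end at the stem-loop summed to 3.01 ± 0.926 and 1.71 ± 0.528 CPM with Bax/Bak deleted, and to 5.72 ± 0.267 and 6.10 ± 0.891 CPM with p53 deleted. The mean of that class was lower in the Bax/Bak Atr-deleted libraries (1.35 to 2.62 CPM) than in the controls (2.17 to 4.31 CPM), and the libraries overlapped. The 23 unspliced genes without a match, Hist2h2be among them, summed to 19.2 ± 1.53 and 17.5 ± 2.09 CPM there. This class rests on the annotation, since it includes genes whose annotated transcripts stop with the coding sequence. Spliced transcripts other than that of Hist1h2bc also were higher in Atr-deleted libraries. They summed to 0.839 ± 0.0464 and 3.54 ± 0.156 CPM with Bax/Bak deleted, and to 0.966 ± 0.300 and 4.63 ± 1.02 CPM with p53 deleted. Among them, those of Hist1h2bq and Hist1h2br went from 0.215 ± 0.0495 to 2.53 ± 0.132 CPM and from 0.529 ± 0.0730 to 3.19 ± 1.08 CPM. The unspliced transcripts of the same 2 genes went from 0.189 ± 0.111 to 0.228 ± 0.0514 CPM and from 0.394 ± 0.0580 to 0.841 ± 0.156 CPM.

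**Figure D5:**
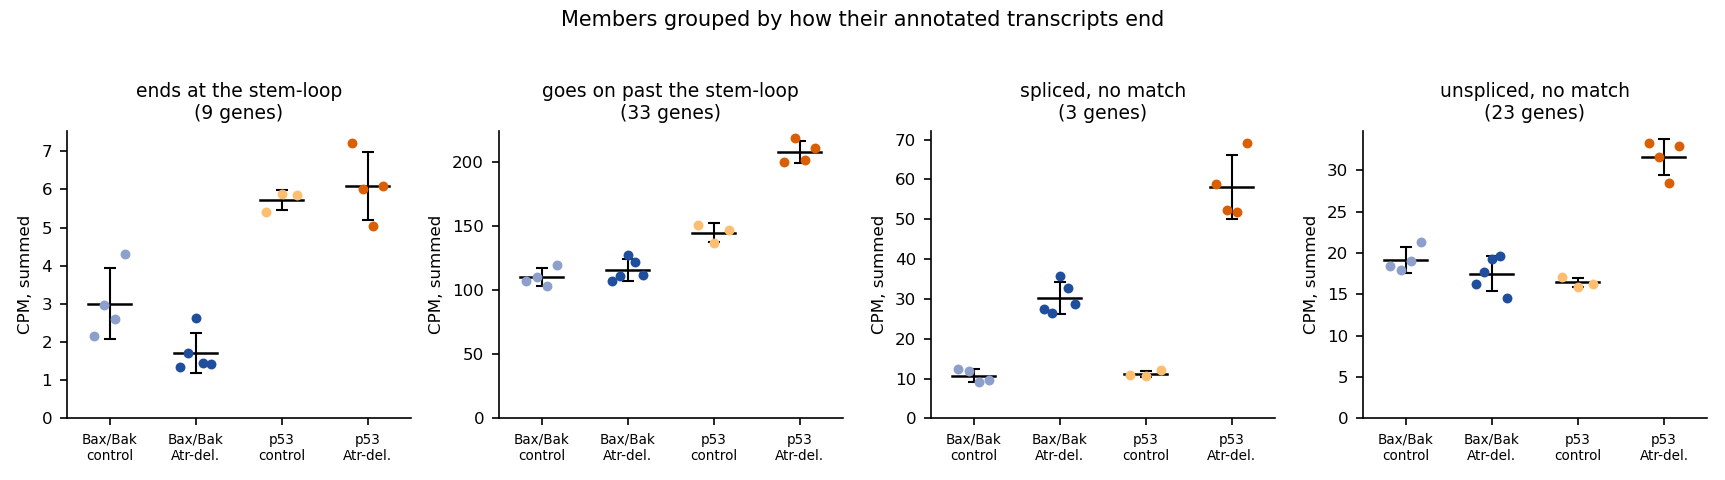
The 4 panels sum the CPM (y axis, from 0) of genes whose annotated transcripts end at the stem-loop, go on past it, are spliced without a match or are unspliced without a match, in each library by group (x axis), with mean and SD. The spliced class, mostly Hist1h2bc, is higher in all Atr-deleted libraries, and the class ending at the stem-loop overlaps between the p53 groups.

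The genes that serve histone RNAs and proteins were taken from lists chosen with earlier results of these data known. Of 31 genes for the synthesis and processing of histone RNA, 17 fell and 3 rose with Atr deletion in the Bax/Bak background (edgeR's quasi-likelihood test, 44.5% of all genes called), with a median log2 fold change of -0.27 against 0.04 over all genes. Slbp, which codes for the stem-loop binding protein, fell from 88.9 ± 2.95 CPM (n = 4) to 50.8 ± 2.69 CPM (n = 5), a log2 fold change of -0.75 ± 0.05 (edgeR adjusted p = 1.58e-06). Npat, the cyclin E/CDK2 target that activates histone transcription, had a log2 fold change of -0.27 ± 0.04 and fell as well (edgeR adjusted p = 0.000224). Ccne2 (-1.04), Casp8ap2 (-0.64) and Snrpd3 (-0.45) fell too, and Lsm11 (0.24), Upf1 (0.20) and Cpsf1 (0.14) rose. With p53 deleted, edgeR called 0 of the 31, and 0 passed the threshold before adjustment. DESeq2 and limma-voom called 0 as well. Slbp was at 79.9 ± 5.23 CPM in the p53 controls (n = 3) and at 75.7 ± 6.14 CPM in the p53 Atr-deleted libraries (n = 4), a log2 fold change of -0.07 ± 0.09 (edgeR adjusted p = 0.888), and that of Npat was -0.03 ± 0.10 (edgeR adjusted p = 0.957). The difference between the Atr effects was called for Slbp (0.69 ± 0.09, edgeR adjusted p = 0.000173) and not for Npat (0.25 ± 0.09, edgeR adjusted p = 0.0677).

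Of 28 histone chaperone genes, whose proteins carry histones to DNA, 21 fell and 3 rose with Bax/Bak deleted. Asf1b fell by 1.25 on the log2 scale, Chaf1b by 0.92, Hat1 by 0.78 and Nasp by 0.74, whereas Cabin1 (0.27), Ipo4 (0.23) and Supt6 (0.25) rose. Of 11 histone variant genes outside the clusters that passed the filter, which are used outside S phase as well, 9 fell and H2afj alone rose (0.67 ± 0.18, edgeR adjusted p = 0.0141). H2afz fell by 1.07, H3f3a by 0.69, H2afx by 0.59 and H2afy2 by 0.44 on the log2 scale. All 20 S phase genes fell, of which Pclaf (-2.21), Pcna (-1.27), Cdc45 (-1.04) and Tyms (-1.03), whose products serve DNA replication or nucleotide supply, were lowest. In the same libraries 18 clustered histone genes were called higher (22.5% of all genes) and 5 lower (22%). With p53 deleted, edgeR called 0 genes of these 3 lists, as did DESeq2 and limma-voom, and before adjustment 2 S phase genes and 0 of the others passed the threshold. The genes of smallest p there were Chaf1b (-0.35, edgeR adjusted p = 0.774), H2afj (-0.23, edgeR adjusted p = 0.798) and Cdc6 (-0.48, edgeR adjusted p = 0.612), and in the first list Zcchc11 (-0.22, edgeR adjusted p = 0.78).

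Other markers moved between the Bax/Bak groups beside the members. Granule cell markers fell for 7 of 10 genes and rose for 1, and their sum was 2526 to 3484 CPM in the controls and 1893 to 2284 CPM in the Atr-deleted libraries. Markers of astrocytes and Bergmann glia rose for 9 of 10 and fell for 1 (4104 to 4773 CPM, then 5334 to 6833 CPM). Purkinje cell markers rose for 8 of 10 (2249 to 2730, then 2649 to 3813 CPM) and interneuron markers for 8 of 8 (679.9 to 788 CPM, then 1004 to 1226 CPM). Markers of the oligodendrocyte lineage rose for 6 of 8 and fell for 1, and those of microglia rose for 6 of 8. Of the markers of endothelium and pericytes 3 of 8 rose, of meninges and choroid plexus 0 of 8 and of erythroid cells 1 of 7. In these last lists 0 fell. The markers of meninges and choroid plexus varied widely within a group, with sums of 288 to 4263 CPM in the controls and 374 to 2949 CPM in the Atr-deleted libraries. The absence of calls in that list therefore does not show equal amounts of this tissue. Over all genes, 22.5% were called higher and 22% lower. Mitochondrial RNA was 1.81% to 2.55% of counts in the controls and 3.53% to 4.35% in the Atr-deleted libraries. In the p53 groups edgeR called 0 of the markers of all these lists. Before adjustment 4 granule cell, 4 oligodendrocyte lineage and 1 microglia marker passed the threshold, all of them lower, and mitochondrial RNA reached 9.02% in Atr-deleted replicate 2. The part of cell composition in the members' values was not tested.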

How the data were processed

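RNA-seq was analysed from 17 libraries of mouse cerebellum in 4 genotype groups. The authors deposited estimated counts per transcript in 2 tables, one per background, with 2 lanes per library. Per the submitters' processing notes the tools were kallisto 0.42.4 and edgeR, and GRCm38 and mm9 are both named as builds; which served for what is not given in the sources used here. Of 94080 transcripts, 92284 matched GENCODE M21, and the rest held 0.779% to 1.04% of counts. Transcripts were summed to 31438 genes, lanes added and counts rounded. The 16 deep libraries held 42987953 to 100659645 counts, and the library of 13601 counts was left out.

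Genes were filtered with filterByExpr, scaled by TMM and tested with the quasi-likelihood test of edgeR 4.0.16 (R 4.3.3, limma 3.58.1) at an adjusted p of 0.05, each background in a fit of its own, and the difference of the Atr effects and the controls in a fit of all 16. The steps were tested on simulated data. The rest was done in Python 3.11.15 with pandas 2.3.3 and numpy 2.4.6, and figures were drawn with matplotlib 3.10.9. Members were described singly where their mean was at least 5 CPM, or at least 1 CPM with a call in any comparison; others named were chosen after their values were seen. The members and lists were chosen with earlier results of these data known. A list of 15 RNAs without a poly-A tail matched 0 genes. Alternatives were other scalings and filters, DESeq2 1.42.0, limma-voom, single lanes, single libraries left out, a joint fit, the shallow library kept in, genes that share sequence left out, and controls of 1 number series, of which those with p53 controls, those in the comparison of controls, those on libraries of shared title numbers, and a looser match of the stem-loop were added after seeing the data.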

Additional observations from a re-analysis of the deposited data

Results flagged for a closer look

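For 4 of the members described singly, the fitted difference of the Atr effects between the backgrounds passed the threshold. It did so for 10 of 61 members tested (16.4%) and for 16.2% of all genes, so the family was called at about the general rate. The log2 fold change with p53 deleted minus that with Bax/Bak deleted was 1.24 for Hist2h2be, 0.94 for Hist1h2bc, 0.90 for Hist1h4i and 0.54 for Hist3h2ba. The family was chosen on these effects, so this is a description, and the background cannot be told apart from the table and the number series. The call of Hist3h2ba was lost in 5 of 27 alternative fits.

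In 1 of 36 groups of 4 or 5 libraries, a library stood apart from the rest of its group. Hist3h2ba was at 63.8 CPM in p53 Atr-deleted replicate 2, while the other 3 libraries were at 47.1 to 47.6 CPM. Chance alone marks about 1 in 20 such groups.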

How the results depend on the processing

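The labels number no replicates, but 3 closing numbers of titles recur in both Bax/Bak groups and 3 in both control groups, each time under different number series. The libraries of equal number did not deviate together throughout (correlations of 0.00213 to 0.166 and of -0.0856 to -0.0127). Percentages in brackets below give the share of all genes tested that was called. On those 6 libraries, 15 members were called with Bax/Bak deleted (31.4%) and 16 between the controls (15%). With the number as a replicate block these were 15 (31.8%) and 12 (13.9%). No paired analysis was possible because only 1 number recurs in the p53 groups, for the Atr effect with p53 deleted and for the difference of the Atr effects. With Bax/Bak deleted, 23 members were called (44.5%), and 7 among genes with a mean of at least 1 CPM (51%). There were 14 without genes sharing over 50% of their 31-base words (46.4%), and 19 to 23 with a library left out (38.6% to 44.3%). With p53 deleted, 2 members were called (0.0461%), 14 by DESeq2 (0.738%), 9 in the joint fit (0.385%) and 5 with the shallow library kept in (0.133%). There was 1 each by limma-voom (0.0231%), from lane 1 (0.0245%) and without shared genes (0.0439%). Calls with the p53 control of series 1843 alone are not given, since it is 1 library. Leaving out a library gave 1 to 3 (0.0113% to 0.0737%), with 1 call without p53 Atr-deleted replicate 1 or 2 or any p53 control. For the difference of the Atr effects, the 10 calls (16.2%) became 5 at a mean of at least 1 CPM (22%) and 6 without shared genes (17.9%). With a library left out they became 5 to 12 (8.82% to 19.7%). Between the controls, the 29 calls (18%) became 4 at a mean of at least 1 CPM (22.1%), 19 from lane 2 (18%) and 15 without shared genes (19%). They became 18 with the Bax/Bak controls of series 100019 alone (10.1%), and 16 to 31 with a library left out (10.2% to 25.9%). Hist1h2ac reversed there, at -1.48 with the p53 control of series 1843 alone. With over 100 bases required, 22 transcripts in place of 34 went on past the stem-loop. Where the mean filter or the sequence filter lowers a count, fewer members were tested, and for the other settings the cause was not tested. Of the values of singly described members, 239 of 261 kept their direction and side of the threshold with Bax/Bak deleted, 198 of 218 with p53 deleted, 280 of 295 for the difference and 332 of 361 between the controls. Depth limits the low members, since 29 of 68 had 0 counts in at least 1 library.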
